A study of Rattus norvegicus with 4 samples.

Results

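The 39 genes described here encode the machinery of autophagy and of lysosomal delivery, and were chosen by symbol from a list of core autophagy genes, cargo receptors and lysosome genes. Of the 39, 36 had at least 1 Affymetrix probe set annotated to them alone, and 34 of these were measured, out of 14217 named genes on the array; a probe set is a group of short probes that reads out 1 transcript region. The other 3 (Map1lc3b, Gabarapl2 and Nbr1) were represented only by probe sets that the platform annotation assigns also to a near copy, so their values are given below as shared and enter no count. RNA came from hippocampal progenitor cells of Fisher 344 rats, kept for 4 days with KHS101 at 5 uM, KHS101 at 1.7 uM, 1 uM retinoic acid together with forskolin (the positive control), or the solvent DMSO (the negative control). KHS101 is a small molecule studied for neuronal differentiation; retinoic acid activates nuclear receptors and forskolin activates adenylyl cyclase. Each of the 4 groups was 1 array, so no difference below has a replicate check and no test was possible; precision is limited by having 4 arrays in all. The study's design text names retinoic acid without forskolin for that array and no source used here states how much forskolin was added. The labels' protocol, which covers several experiments, gives early-passage cultures in N2 medium and the treatment time of 4 days. Where 4 log2 values follow each other below, they are in the order just given, with DMSO last, and 3 differences are those of the first 3 arrays from DMSO.

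In autophagy, a kinase complex around ULK1 starts the formation of a double membrane, a class III phosphatidylinositol 3-kinase marks it with PI3P, and ubiquitin-like conjugation attaches proteins of the ATG8 family (LC3 and GABARAP) to it. Receptors such as p62 (Sqstm1) carry cargo to the growing membrane, which then fuses with lysosomes, where cathepsins work at the low pH set by the V-ATPase proton pump. The transcription factors TFEB and TFE3 activate many of these genes, and in neural progenitors the pathway is known for clearing damaged organelles during growth and differentiation.

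The deposited values are log2 expression, and values under log2 = 5 were treated as background and raised to 5. A gene counted as measured in a comparison if 1 of its 2 arrays lay above this floor, and was called at a log2 difference of at least 1 (2-fold). All 34 measured members were above the floor on all 4 arrays, with log2 values between 5.09 and 13.30. Atg10 and Atg14 stayed below it on all 4, at 3.58 to 4.26 and 3.54 to 4.43. Pairs of arrays correlated at r = 0.981 to 0.996 across probe sets. For beta-actin, the log2 signal near the 3' end exceeded that near the 5' end, a sign of RNA quality. The excess was 1.54 (KHS101 5 uM), 1.40 (KHS101 1.7 uM), 1.37 (retinoic acid, forskolin) and 1.26 (DMSO). For hexokinase it was 0.96, 0.80, 0.66 and 0.69. GAPDH was lower near the 3' end (14.37, 14.48, 14.46 and 14.56) than near the 5' end (14.48, 14.62, 14.58 and 14.71). The part of RNA quality in the results below was not tested. Of 5 progenitor markers with a probe set, 4 (Nes, Sox2, Vim and Fabp7) were above the floor and Pax6 was not. The log2 of the summed signal of all 5 was 15.27, 15.70, 15.92 and 16.04 in the same order of arrays. Such sums, here and below, include markers under the floor. The 4 above the floor did not go 1 way. Fabp7 was 12.48 and 13.39 with KHS101 (5 and 1.7 uM) against 14.59 in DMSO, and Sox2 was 13.57 and 13.82 against 14.01. Nes was 11.89 and 11.97 against 11.36, and Vim was 14.13 and 14.55 against 14.53. All 8 microglia and macrophage markers, from a cell type rich in lysosomes, were each under the floor on every array. The log2 of the summed signal of the 8 was 5.14 to 5.20. The log2 of the summed signal of the neuron markers was 12.58 in DMSO and 12.76 to 12.98 in the treated cultures (2 of 4 above the floor). That of the astrocyte markers was 13.16 and 13.33 to 14.21 (1 of 4, S100b). The oligodendrocyte lineage sum was 10.75 and 11.40 with KHS101 (5 and 1.7 uM), 13.64 with retinoic acid and forskolin, and 12.66 for the DMSO culture (Mbp and Olig2 above the floor on all arrays, and Mog only with retinoic acid and forskolin, at 5.03), and its part in the results was not tested. In such bulk RNA, fewer cells of a type and less RNA per cell cannot be told apart.

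Against DMSO, few of the members with a probe set of their own differed by 2-fold, and those that did were higher. A probe set shared by Gabarapl2 and Gabarapl3, not counted here, was 2.21-fold lower with KHS101 at 5 uM. With KHS101 at 5 uM, 3 of 34 members were called higher (Ctsl, Sqstm1 and Uvrag; 8.82%) and 0 lower, where 6.16% of all measured genes were called higher and 8.10% lower. At 1.7 uM, 2 of 34 were higher (Ctsl and Sqstm1; 5.88%) and 0 lower, beside 4.36% and 4.27% of all genes. With retinoic acid and forskolin, 2 were higher (Sqstm1 and Wipi1; 5.88%) and 0 lower, beside 4.34% and 3.15%. The shares of members called higher were thus near those of all genes in each comparison. Between the KHS101 concentrations, 0 members were called in either direction; 0.812% of all genes were higher and 1.73% lower at 5 uM.

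Below 2-fold the members lay mostly on the higher side of DMSO. The median log2 difference over the 34 members was 0.22 with KHS101 at 5 uM, 0.18 at 1.7 uM, and 0.27 for retinoic acid plus forskolin, beside medians of 0.00, -0.01 and -0.03 over all measured genes. With the probe sets shared with near copies counted, the median at 5 uM was 0.12. Above 0 were 25, 27 and 29 of the 34 members in these comparisons, and 50.2%, 49.0% and 47.5% of all genes. The 3 comparisons share the DMSO array, so a low or high DMSO value enters each of them. At a threshold of 1.5-fold, 7 members were higher and 1 lower with KHS101 at 5 uM (20.6% and 2.94%, beside 14.6% and 16.1% of all genes), 5 and 1 at 1.7 uM (14.7% and 2.94%, beside 10.5% and 10.6%) and 6 and 0 with retinoic acid and forskolin (17.6%, beside 11.3% and 12.2%). The sizes were small: the median size of a member's difference was 0.31, 0.25 and 0.27, while 14 members with at least 2 measured probe sets of their own had a median gap between those probe sets of 0.32, 0.20 and 0.23. All probe sets of a member lay on the same side of DMSO for 9, 11 and 8 of these 14. A typical difference of a member from DMSO was therefore of the size of the gap between probe sets of 1 gene.

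**Figure D1:**
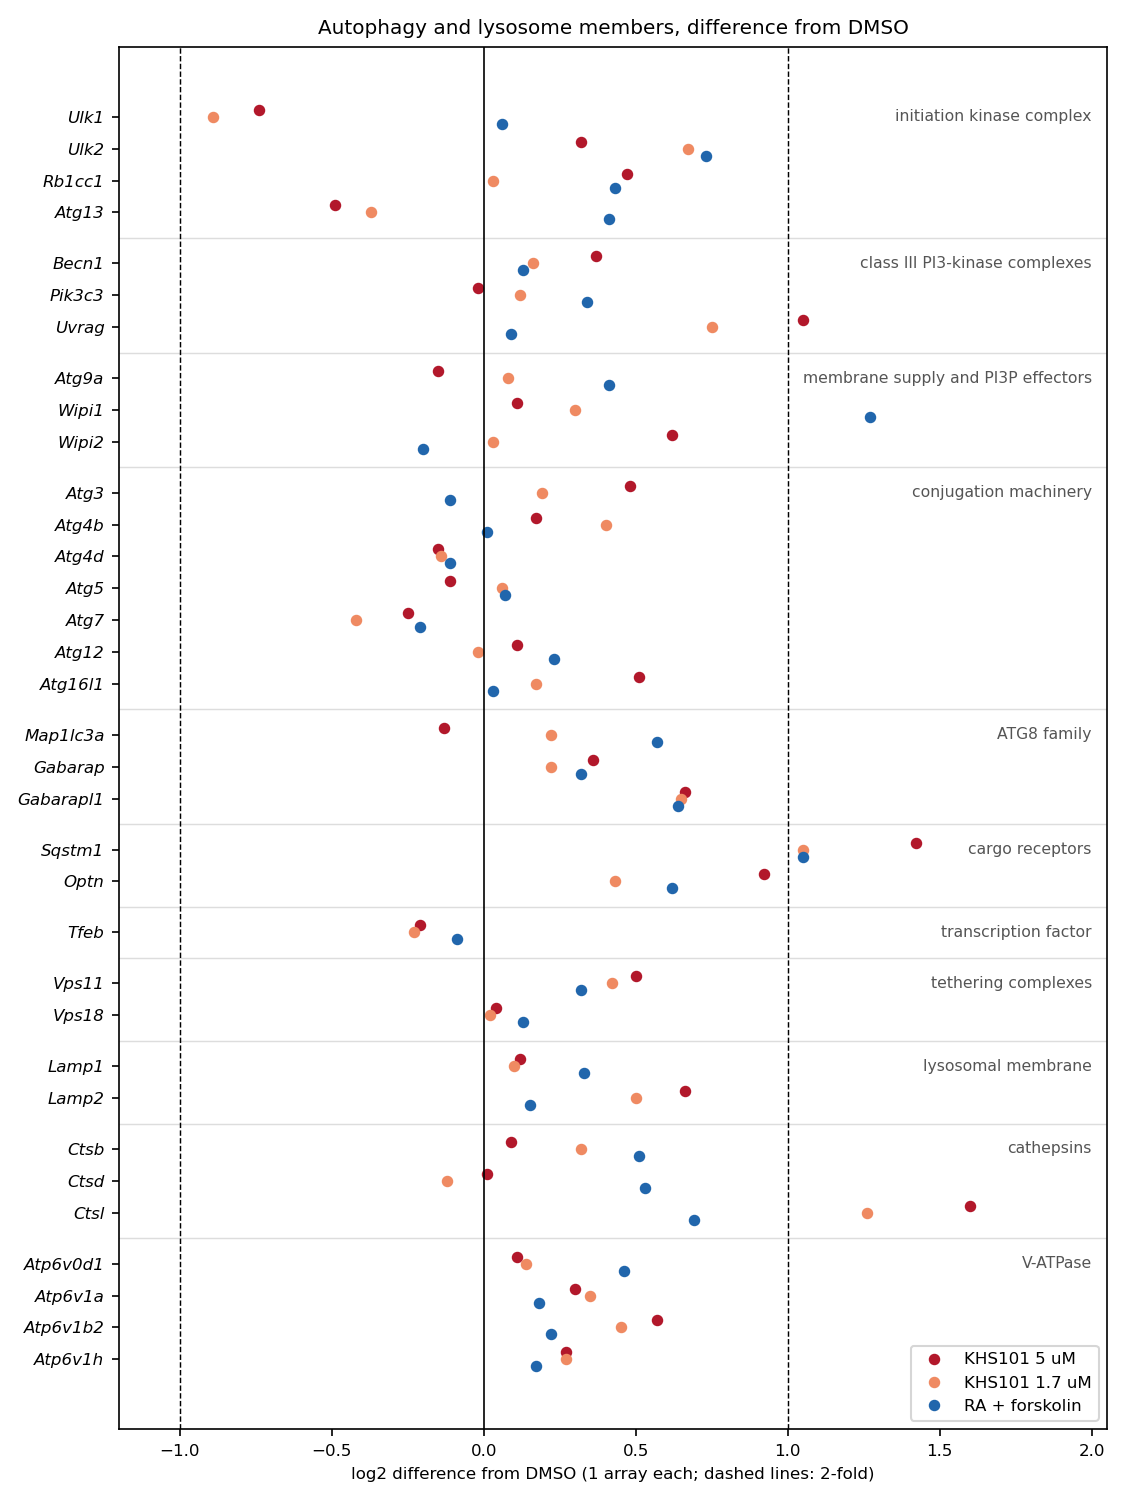
Log2 difference from DMSO (horizontal axis) of the 34 measured members, 1 row each, grouped by role; each point is 1 array minus the DMSO array, in dark red for KHS101 5 uM, orange for KHS101 1.7 uM and blue for retinoic acid (RA) with forskolin. Points beyond the dashed 2-fold lines are Ctsl, Sqstm1 and Uvrag for KHS101 and Sqstm1 and Wipi1 for retinoic acid with forskolin, and Ulk1 lies furthest to the left.

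**Figure D2:**
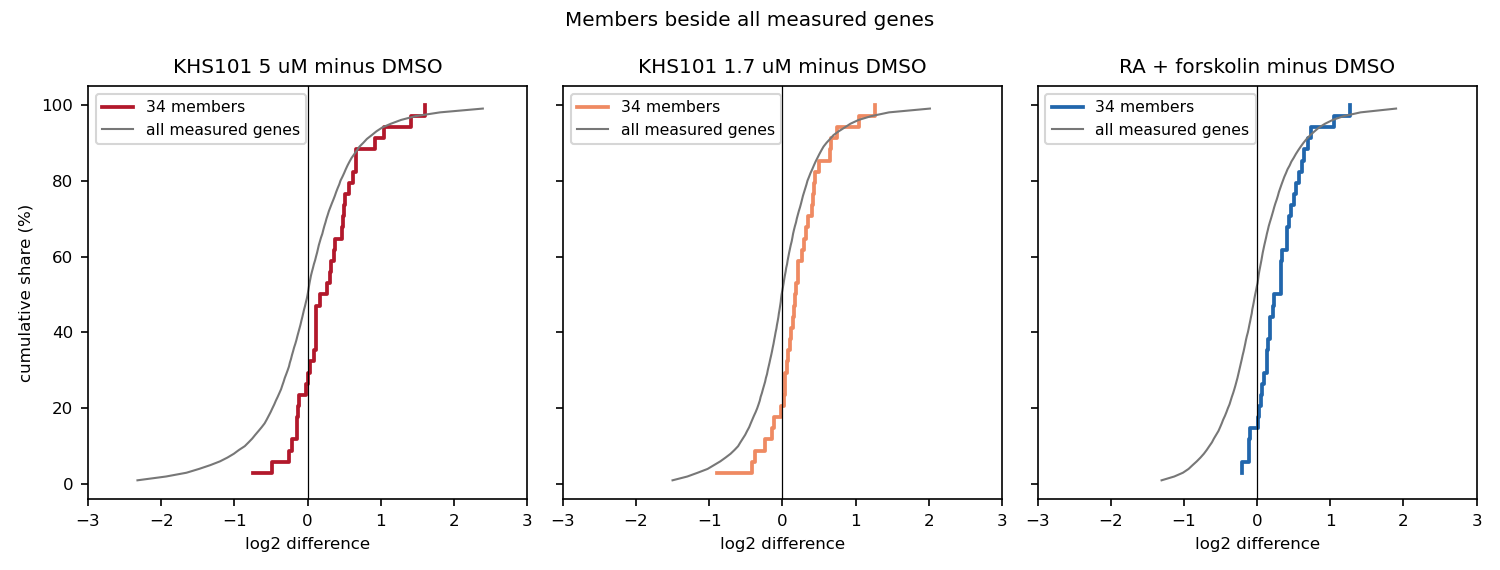
Cumulative share (vertical axis, percent) of log2 differences from DMSO (horizontal axis) for the 34 members (coloured steps) and for all measured genes (grey, percentiles 1 to 99), 1 panel for each treatment. The member curve lies to the right of the grey curve around 0, with medians of 0.22, 0.18 and 0.27, and the lowest members lie at -0.74, -0.89 and -0.21.

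Ctsl encodes cathepsin L, a cysteine protease of the lysosome, and had the largest difference of any member at both KHS101 concentrations. Its log2 value was 12.67 with KHS101 at 5 uM, 12.33 at the lower KHS101 concentration, 11.75 for retinoic acid plus forskolin and 11.07 in DMSO, so it was lowest in DMSO and highest at the higher KHS101 concentration. The differences from DMSO were 1.60 (3.03-fold), 1.26 (2.39-fold) and 0.69 (1.61-fold). A further Ctsl probe set gave the same order of arrays, with log2 values of 9.72, 9.08, 8.60 and 7.62 and larger differences of 2.10, 1.46 and 0.98. Sqstm1 encodes p62, the receptor that links ubiquitinated cargo to LC3 and is itself degraded by autophagy. Its values were 13.00, 12.63, 12.64 and 11.58 in the same order, with DMSO the lowest array and KHS101 at 1.7 uM level with retinoic acid and forskolin. The differences were 1.42 (2.68-fold), 1.05 (2.07-fold) and 1.05 (2.07-fold). The further measured Sqstm1 probe set had 12.10, 11.56, 11.44 and 11.04, and its differences of 1.05, 0.52 and 0.40 passed 2-fold only with KHS101 at 5 uM. With the mean of its probe sets, Sqstm1 differed by 0.78 at 1.7 uM, and by 0.72 for retinoic acid plus forskolin, below 2-fold in both. The remaining pair of Sqstm1 probe sets was under the floor on all 4 arrays (1.93 to 2.69).

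**Figure D3:**
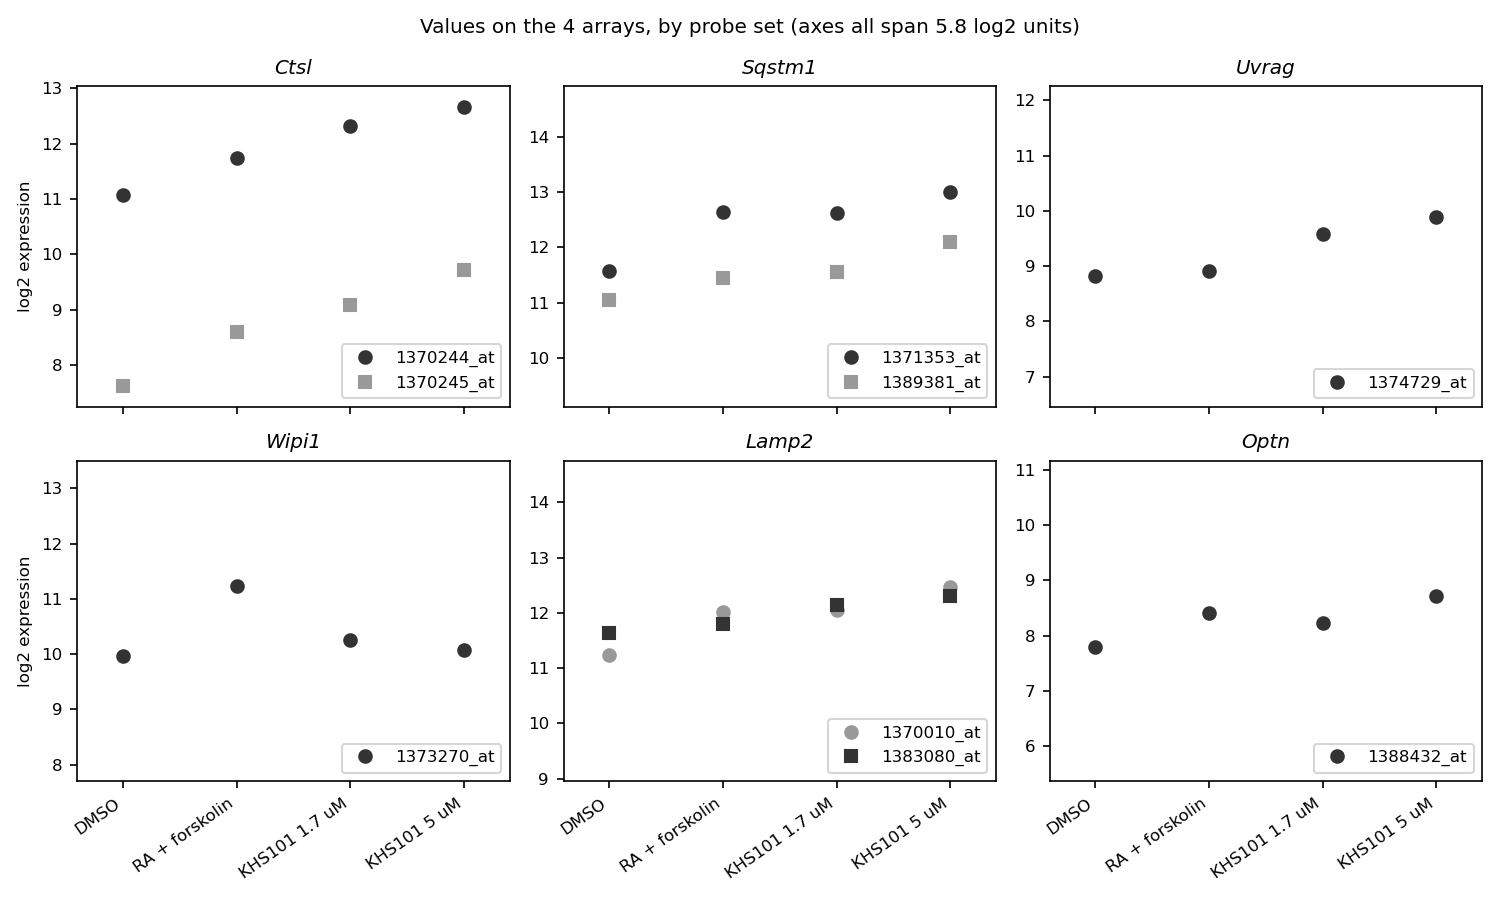
Log2 expression (vertical axis, 5.8 log2 units in every panel) on the 4 arrays for the measured probe sets of Ctsl, Sqstm1, Uvrag, Wipi1, Lamp2 and Optn; dark symbols mark the probe set that stands for the gene and grey symbols a further one. DMSO is the lowest array for every probe set shown, and Wipi1 alone among the 6 genes is highest with retinoic acid and forskolin.

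Sequence upstream of the start of these genes was examined for the elements through which the pathway is known to be controlled. The 250 bases before the annotated start of Ctsl and Sqstm1 are shown because these members passed 2-fold at both KHS101 concentrations. Those of Lamp1 and Ctsd were added outside this rule as examples of members that hold the element of TFEB and TFE3. Other members that hold it are named below and not shown. Of these, Atg3, Vps11 and Atp6v0d1 differed from DMSO by 0.48, 0.50 and 0.11 on the log2 scale with KHS101 at 5 uM. Lamp1 and Ctsd differed by 0.12 and 0.01, so the sequences shown are no comparison of members with and without the element. Sequences are from RefSeq (build GRCr8), 5′ to 3′ on the gene's strand, with capitals for a match to CACGTG (the E-box at the core of the TFEB element), its longer form TCACGTGA, or TGACNNNGC (the core of the antioxidant response element bound by NRF2).
Ctsl, chr17:769854-770103, plus strand: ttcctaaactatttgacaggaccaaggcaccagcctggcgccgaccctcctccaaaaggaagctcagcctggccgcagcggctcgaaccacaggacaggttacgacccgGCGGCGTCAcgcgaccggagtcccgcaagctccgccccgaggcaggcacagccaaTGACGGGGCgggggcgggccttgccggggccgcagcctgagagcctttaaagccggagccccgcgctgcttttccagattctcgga
Sqstm1, chr10:35037751-35038000, minus strand: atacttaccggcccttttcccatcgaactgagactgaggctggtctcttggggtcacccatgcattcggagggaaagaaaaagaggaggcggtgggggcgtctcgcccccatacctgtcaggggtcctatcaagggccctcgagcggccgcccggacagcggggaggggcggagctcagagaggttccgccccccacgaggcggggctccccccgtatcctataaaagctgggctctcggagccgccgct
Lamp1, chr16:83075064-83075313, minus strand: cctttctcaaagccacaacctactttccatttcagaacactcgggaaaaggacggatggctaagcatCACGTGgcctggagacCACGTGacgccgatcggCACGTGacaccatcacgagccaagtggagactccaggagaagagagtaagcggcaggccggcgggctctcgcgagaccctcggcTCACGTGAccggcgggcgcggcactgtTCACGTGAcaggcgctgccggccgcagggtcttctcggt
Ctsd, chr1:206968822-206969071, minus strand: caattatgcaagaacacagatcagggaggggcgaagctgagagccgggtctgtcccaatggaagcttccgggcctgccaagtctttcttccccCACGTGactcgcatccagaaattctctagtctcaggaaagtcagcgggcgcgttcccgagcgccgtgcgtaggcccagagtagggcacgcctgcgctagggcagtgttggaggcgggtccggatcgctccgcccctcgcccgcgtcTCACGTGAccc

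Ctsl held matches to TGACNNNGC alone, Lamp1 and Ctsd held E-boxes in the window shown, and Sqstm1 held no match to any of these letters in this window. Windows of 300 bases (250 before and 50 after the start) were given for 32 of the 39 members and were searched on both strands; every TCACGTGA match is also a CACGTG match. TCACGTGA was found for 5 of the 32 members (15.6%: Atg3, Atp6v0d1, Ctsd, Lamp1 and Vps11), in 0.777% of all 33469 windows and in 1.91% of 8132 windows of genes above the floor. CACGTG was found for 7 members (21.9%), in 6.42% of all windows and in 10.0% of those of genes above the floor. TGACNNNGC was found for 11 members (34.4%, beside 12.1% and 14.7%), and TGATGNAAT, the composite element bound by ATF4 and CHOP, for 0 (1.09% and 0.492%). Apart from Ctsl, the TGACNNNGC members measured on their own probe sets differed from DMSO by -0.15 (Atg4d) to 0.36 (Gabarap) with KHS101 at 5 uM. Of the rest, Atg10 was under the floor and the shared probe set of Map1lc3b differed by -0.22. The median GC content was 61.5% in the member windows, 61.7% in those of genes above the floor and 51.7% in all. The 5 members with TCACGTGA differed from DMSO by 0.48 (Atg3), 0.11 (Atp6v0d1), 0.01 (Ctsd), 0.12 (Lamp1) and 0.50 (Vps11) with KHS101 at 5 uM. At 1.7 uM they differed by 0.19, 0.14, -0.12, 0.10 and 0.42. With retinoic acid and forskolin the same 5 differed by -0.11, 0.46, 0.53, 0.33 and 0.32. A match is a description of letters and shows no binding. The members were listed as genes of this pathway, and TFEB and TFE3 are known to activate many of them. Their share with TCACGTGA is therefore not a result of these arrays. The list was fixed by symbol, so the shares with CACGTG and TGACNNNGC are not results of these arrays either.

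Of the 4 genes of the initiation kinase complex, 0 were called at 2-fold in any comparison; 2 lay above and 2 below DMSO at each KHS101 concentration, and all 4 above it with retinoic acid and forskolin. Ulk1, the kinase that starts autophagy, had log2 values of 7.03 with KHS101 at 5 uM, 6.87 at the lower KHS101 concentration, 7.82 for retinoic acid plus forskolin and 7.76 in DMSO. Both KHS101 arrays were lower than the other 2, by 0.74 (1.67-fold) and 0.89 (1.85-fold) against DMSO, which makes Ulk1 the lowest of the 34 members in either comparison. Its other probe set, near the floor at 5.37 to 5.60, differed by -0.23 at both concentrations. Ulk2, the close relative of Ulk1, lay on the other side, at 6.86, 7.21, 7.27 and 6.54, with differences of 0.32, 0.67 (1.59-fold) and 0.73 (1.66-fold). Atg13, a regulatory subunit of the complex, had 9.67, 9.79, 10.57 and 10.17 and thus lay below DMSO with KHS101 (log2 differences of -0.49 and -0.37) and above it with retinoic acid and forskolin (0.41). Rb1cc1, the scaffold FIP200, was 0.47 higher with KHS101 at 5 uM, 0.03 at 1.7 uM, and 0.43 for retinoic acid plus forskolin; its other probe set gave 0.42, -0.05 and 0.19.

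Among the class III phosphatidylinositol 3-kinase genes, Uvrag stood apart from the catalytic subunit. Uvrag, the subunit of the complex that acts in endosome and autophagosome maturation, had log2 values of 9.89 with KHS101 at 5 uM, 9.59 at the lower KHS101 concentration, 8.92 for retinoic acid plus forskolin and 8.83 in DMSO. Both KHS101 arrays were higher than the other 2, by 1.05 (2.08-fold) and 0.75 (1.69-fold) against DMSO, and the difference with retinoic acid and forskolin was 0.09; only 1 probe set represents the gene. Becn1, the Beclin 1 subunit shared by these complexes, had 12.29, 12.08, 12.05 and 11.92, at most 1.29-fold above DMSO. Pik3c3, the lipid kinase itself, differed by -0.02, 0.12 and 0.34. Of the PI3P-binding proteins, Wipi1 had 10.07, 10.26, 11.23 and 9.96. The array with retinoic acid and forskolin stood above the other 3, 1.27 (2.41-fold) over DMSO, against 0.11 and 0.30 with KHS101. The other Wipi1 probe set was under the floor on all 4 arrays (4.44 to 4.54). Wipi2, which recruits the conjugation machinery, had 8.23, 7.64, 7.42 and 7.62 and was highest with KHS101 at 5 uM, 0.62 (1.53-fold) above DMSO, while the difference was 0.03 at 1.7 uM, and -0.20 for retinoic acid plus forskolin. The higher and lower KHS101 concentrations differed by 0.59 for Wipi2, the 1 member past 1.5-fold between them (2.94% of members, beside 3.62% of all genes higher and 6.27% lower). Atg9a, a membrane protein that supplies lipid vesicles, differed from DMSO by -0.15, 0.08 and 0.41.

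Genes of the conjugation machinery differed little. Of 8 listed, 7 were measured, 0 passed 2-fold or 1.5-fold in any comparison with DMSO, and their medians were 0.11 with KHS101 at 5 uM, 0.06 at 1.7 uM, and 0.01 for retinoic acid plus forskolin. Atg5, which joins Atg12 and Atg16l1 in the complex that conjugates LC3, had log2 values of 7.94, 8.12, 8.12 and 8.05 (DMSO last). Its differences were -0.11, 0.06 and 0.07. The other measured Atg5 probe set gave 0.25, -0.13 and -0.12, of the opposite sign each time. Atg7, the E1-like enzyme of both conjugation pathways, had 6.95, 6.78, 7.00 and 7.20, with DMSO the highest array and differences of -0.25, -0.42 and -0.21. The further measured Atg7 probe set gave 0.01, -0.09 and 0.10. Atg3, the E2-like enzyme for LC3, and Atg16l1 were the highest of the 7 at 5 uM, at 0.48 and 0.51 above DMSO. The protease genes Atg4b and Atg4d differed by 0.17 and -0.15 there, and Atg12 by 0.11; further probe sets gave 0.02 for Atg4b and 0.14 and -0.14 for Atg12.

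The ATG8 family, whose proteins coat the autophagosome, had 3 members measured on probe sets of their own. Gabarapl1 had log2 values of 11.20, 11.19, 11.18 and 10.54: the 3 treated arrays were close to each other and above DMSO, by 0.66 (1.59-fold), 0.65 (1.57-fold) and 0.64 (1.56-fold). Its other probe set, at 9.47, 9.55, 9.48 and 8.94, gave 0.54, 0.61 and 0.54, so only the DMSO array stood apart on either. Gabarap differed by 0.36, 0.22 and 0.32, and its other, dim probe set (5.63 to 5.73) by -0.02, -0.10 and -0.01. Map1lc3a (LC3A) had 11.06, 11.41, 11.75 and 11.18, and differed from DMSO by 0.57 (1.48-fold) with retinoic acid and forskolin and by -0.13 with KHS101 at 5 uM.

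For 3 members the platform annotation names a near copy on the same probe sets, and these values cannot be assigned to 1 gene. The probe set of Map1lc3b (LC3B, the usual marker of autophagosomes) and Map1lc3b2 had 11.88, 11.62, 12.44 and 12.10: both KHS101 arrays were below DMSO (log2 differences of -0.22 and -0.48), and retinoic acid with forskolin was 0.34 above it. The brighter probe set of Gabarapl2 and Gabarapl3 had 12.44, 12.61, 13.44 and 12.99, with differences of -0.55, -0.38 and 0.45. The dimmer one had 8.74, 9.00, 10.15 and 9.88 and differences of -1.15, -0.89 and 0.27, so it was 2.21-fold lower with KHS101 at 5 uM. On both, KHS101 lay below DMSO and retinoic acid with forskolin above it. The pair for Nbr1, a receptor related to p62, differed from DMSO by -0.05 and -0.05 at 5 uM, by -0.11 and -0.25 at 1.7 uM, and by 0.44 and 0.39 for retinoic acid and forskolin.

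Besides Sqstm1, the receptor gene Optn (optineurin, which takes part in the removal of mitochondria and bacteria) was higher on each treated array. Its log2 values were 8.72 with KHS101 at 5 uM, 8.23 at the lower KHS101 concentration, 8.41 for retinoic acid plus forskolin and 7.80 in DMSO. The differences were 0.92 (1.89-fold), 0.43 (1.35-fold) and 0.62 (1.53-fold), short of 2-fold, and its other probe set was under the floor (4.13 to 4.39). Tfeb, the transcription factor of lysosome genes, had 5.10, 5.09, 5.23 and 5.31 and stayed just above the floor, with differences of -0.21, -0.23 and -0.09. So close to the floor, lower Tfeb RNA would not have been visible, while a 2-fold higher level would have been.

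At the lysosome the members differed among themselves. Lamp2, a membrane glycoprotein needed for fusion and for chaperone-mediated autophagy, had log2 values of 12.30, 12.14, 11.80 and 11.64 on the probe set that stands for it, with differences of 0.66 (1.58-fold), 0.50 (1.41-fold) and 0.15 (1.11-fold). Its other probe set, nearly as bright, had 12.47, 12.05, 12.01 and 11.23, with differences of 1.25 (2.37-fold), 0.82 (1.77-fold) and 0.78 (1.72-fold). DMSO was the lowest array on both, but a 2-fold call for Lamp2 depends on the probe set. Lamp1, its relative, had 13.09, 13.07, 13.30 and 12.97, at most 1.26-fold above DMSO. Ctsd, the aspartic protease cathepsin D, had 10.66, 10.53, 11.18 and 10.65: retinoic acid with forskolin stood 0.53 (1.44-fold) above DMSO, and KHS101 differed by 0.01 and -0.12. Ctsb, the cysteine protease cathepsin B, had 12.13, 12.36, 12.54 and 12.04, with differences of 0.09, 0.32 and 0.51. Of the 3 cathepsins, Ctsl alone passed 2-fold with KHS101, and the other two had their highest value with retinoic acid and forskolin.

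The 4 V-ATPase subunits were each above DMSO on all treated arrays, by 0.11 to 0.57 with KHS101 at 5 uM, 0.14 to 0.45 at 1.7 uM, and 0.17 to 0.46 for retinoic acid plus forskolin, and 0 of them passed 2-fold. Atp6v1b2, a subunit of the ATP-hydrolysing part, had the largest difference with KHS101, at 0.57 (1.49-fold) and 0.45 (1.37-fold), and Atp6v0d1, of the membrane part, the largest with retinoic acid and forskolin, at 0.46 (1.38-fold). The further probe set of Atp6v1b2 gave 0.37, 0.28 and 0.15. Atp6v1a differed by 0.30, 0.35 and 0.18 (0.44, 0.43 and 0.30 on its other probe set) and Atp6v1h by 0.27, 0.27 and 0.17. Vps11, a core subunit of the tethering complexes that prepare fusion, had 9.34, 9.26, 9.16 and 8.84, with differences of 0.50, 0.42 and 0.32. Its partner Vps18 stayed near the floor (5.31 to 5.45) and differed by 0.04, 0.02 and 0.13 on that probe set; the other (4.88, 5.52, 4.95 and 5.39) gave -0.39, 0.13 and -0.39, with values under the floor raised to it.

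A wider list of 114 further genes of the pathway was read the same way; 101 had a probe set of their own and 88 were measured with KHS101. At 5 uM, 11 of 88 were called higher (12.5%, beside 6.16% of all genes) and 0 lower; at 1.7 uM, 7 of 88 (7.95%, beside 4.36%) and 0; with retinoic acid and forskolin, 5 of 87 (5.75%, beside 4.34%) and 0. The medians were 0.15, 0.15 and 0.26. Between the KHS101 concentrations 0 of 88 were called. Sesn2 and Ddit4 were known to be higher when the list was made; without them the counts were 9 of 86 at 5 uM (10.5%) and 5 of 86 at 1.7 uM (5.81%), so the list's shares are descriptions and not independent evidence.

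In the group of regulators and lysosomal membrane genes, 4 of 12 measured were called higher at 5 uM (33.3%, beside 6.16% of all genes) and 3 of 12 at 1.7 uM (25.0%, beside 4.36%). Rragd encodes a Rag GTPase that holds mTORC1 at the lysosome; it had log2 values of 7.77 at 5 uM, 7.06 at the lower KHS101 concentration, 3.27 for retinoic acid plus forskolin and 4.92 in DMSO, so it was above the floor only with KHS101 and at least 6.84-fold and 4.18-fold higher than DMSO. Flcn, the folliculin gene whose product acts on that GTPase, had 11.20, 10.53, 9.96 and 9.50, with differences of 1.70 (3.24-fold), 1.02 (2.03-fold) and 0.45 (1.37-fold). Tfe3, the relative of Tfeb, had 8.65, 8.43, 7.92 and 7.37, with differences of 1.28 (2.42-fold), 1.06 (2.08-fold) and 0.55 (1.46-fold), and Tfeb itself had a low signal. Rragc, which encodes a further Rag GTPase, was higher by 1.14 (2.21-fold) at 5 uM and by 0.59 at 1.7 uM, and its further probe set gave 1.13 and 0.68; it was named after its values were seen. The lowest of the group at 5 uM was Lamtor2, of the complex that anchors Rag GTPases, at -0.28. Of the 12, 11 lay above DMSO at 5 uM and 10 at 1.7 uM, with medians of 0.79 and 0.59. With retinoic acid and forskolin the median of 11 was 0.15 and 0 were called. This group was singled out from several in the wider list. At 5 uM, 4 of 12 initiation genes of that list were called higher too, Sesn2 and Ddit4 among them. Of its measured receptor, fusion, V-ATPase and conjugation genes, 0 were called there.

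Sesn2 and Ddit4, stress-induced inhibitors of mTORC1 signalling, were 9.39-fold and 4.29-fold higher at 5 uM. Prkaa2, a catalytic subunit of AMPK, had 6.71, 5.76, 5.29 and 5.21 and was above DMSO by 1.49 (2.82-fold) at 5 uM and by 0.55 at 1.7 uM. Deptor, an inhibitor of mTOR, had 6.58, 5.69, 5.36 and 4.99 and was at least 2.99-fold higher at 5 uM; its other probe set gave at least 0.70 on the log2 scale. Among 19 measured hydrolases, 2 were called higher at each KHS101 concentration (10.5%, beside 6.16% of all genes at 5 uM and 4.36% at 1.7 uM). Gaa, the acid alpha-glucosidase that degrades lysosomal glycogen, had 10.77, 10.97, 10.32 and 9.41, with differences of 1.36 (2.56-fold), 1.56 (2.96-fold) and 0.91 (1.88-fold), and its other probe set gave 1.45, 1.35 and 0.81. Neu1, a lysosomal sialidase, had 7.69, 7.71, 7.04 and 6.42, with differences of 1.26 (2.40-fold), 1.29 (2.44-fold) and 0.62 (1.53-fold); its further probe set was near or under the floor (3.93 to 5.21). For both genes DMSO was the lowest array and the KHS101 concentrations were close. The median over the 19 hydrolases was -0.05 at 5 uM, with 9 of 19 above DMSO. Igf2r, which sorts hydrolases to lysosomes, was 1.29 (2.45-fold) higher at 5 uM and 0.91 at 1.7 uM, while its other probe set gave 0.74 and 0.61.

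With retinoic acid and forskolin, the genes called included receptors for organelle turnover and a V-ATPase subunit. Ctsf, the cathepsin F gene, had log2 values of 5.56 with KHS101 at 5 uM, 5.85 at the lower KHS101 concentration, 7.31 for retinoic acid plus forskolin and 5.64 in DMSO, a difference from DMSO of 1.68 (3.20-fold) for that treatment. Tp53inp2, which binds ATG8 proteins and promotes autophagosome formation, had 9.30, 9.92, 11.75 and 10.11: retinoic acid with forskolin was 1.63 (3.10-fold) above DMSO, and KHS101 differed by -0.81 and -0.20. Calcoco1 and Retreg1, receptors for turnover of the endoplasmic reticulum, were 2.12-fold and 2.15-fold higher, and with KHS101 at 5 uM differed by -0.64 and 0.17. Atp6v0a2, a V-ATPase subunit, was 1.14 (2.20-fold) higher, its other probe set gave 1.24, and the KHS101 differences were -0.03 and -0.10. The hydrolases as a list had a median of 0.55 with retinoic acid and forskolin (16 of 19 above DMSO), the receptors one of 0.40 (11 of 12) and the further V-ATPase genes one of 0.23 (12 of 12). With KHS101 at 5 uM the same lists had medians of -0.05, -0.23 and 0.43. These are descriptions of single arrays that share 1 DMSO array, and the differences between treatments were not tested.

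**Figure D4:**
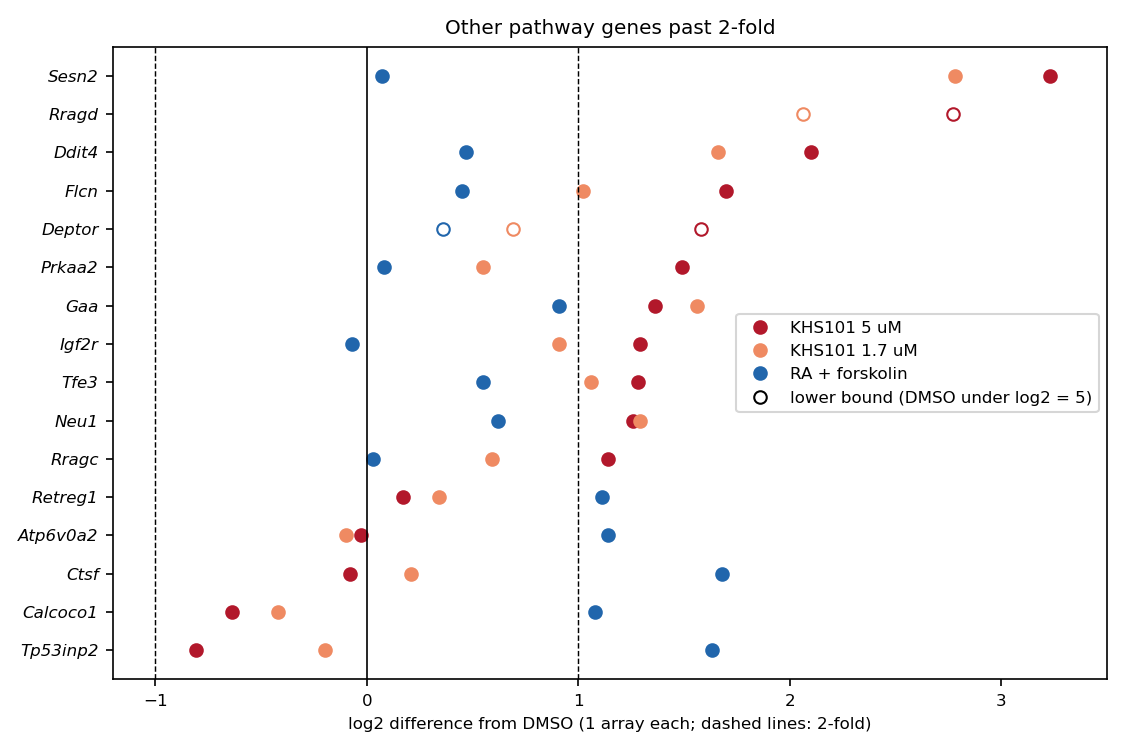
Log2 difference from DMSO (horizontal axis) of the 16 genes of the wider list that passed 2-fold in at least 1 comparison with DMSO, 1 row each, colours as for the members; open circles are lower bounds, where DMSO was under the floor of log2 = 5. Sesn2, Rragd, Ddit4 and Flcn lie furthest to the right with KHS101 at 5 uM, and Retreg1, Atp6v0a2, Ctsf, Calcoco1 and Tp53inp2 pass the 2-fold line only with retinoic acid and forskolin.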

How the data were processed

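The authors deposited log2 expression values for 31099 probe sets on 4 arrays; GCRMA and R 2.6.2 are named per the submitters' processing notes, and the role of each and the annotation used are not given in the sources used here. The log2 scale was read from the values, whose array medians were 3.67 to 3.76; sorted columns differed by at most 0.19, so an overall shift common to the whole array is not visible in them. From 45.4% to 45.9% of values exceeded the floor.

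Probe sets were named through the platform annotation (20832 with 1 symbol, 436 with several, 9780 not control and unnamed here). Where a gene had several probe sets, the brightest on average stood for it; array controls were left out. Differences, calls and medians were computed with Python 3.11.15, pandas 2.3.3 and numpy 2.4.6, and figures with matplotlib 3.10.9. The calling code was tested on simulated data, with shifts above the threshold planted in bright genes under little noise. That checks the code and says nothing on how reliable the calls above are. No p-value could be computed with 1 array a group. Members and lists were chosen with earlier results of these data known. Full values were given for members past 2-fold and 12 core genes, and for the wider list for genes past 2-fold, at most the 8 largest in each direction and comparison; Rragc, Lamp2's second probe set and other members were described after their values were seen. All 39 members matched a RefSeq gene, and promoter windows were from RefSeq. Showing the Lamp1 and Ctsd sequences was not planned. Alternatives were other floors, thresholds, probe set rules and scalings.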

Additional observations from a re-analysis of the deposited data

How the results depend on the processing

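No group had a replicate, so none could be left out. The median differences of the members stayed positive under every alternative tried (other floors, no floor, the mean of probe sets, centring, quantile normalization, shared probe sets counted): 0.12 to 0.29 with KHS101 at 5 uM, 0.16 to 0.21 at 1.7 uM, 0.23 to 0.32 with retinoic acid and forskolin and 0.02 to 0.10 between the KHS101 concentrations. Counts of members past the threshold were 3, 2, 2 and 0 in that order; at 1.5-fold they were 8, 6, 6 and 1, and at 3-fold 1, 0, 0 and 0. With the mean of a gene's probe sets, 1 member was past 2-fold at 1.7 uM and 1 for retinoic acid plus forskolin, since Sqstm1 fell short in both (0.78 and 0.72), and Ulk1 at 1.7 uM was -0.56 in place of -0.89. Of 36 alternative counts 27 stayed within 1.5 times. For single members, 3 of 78 alternative values moved and 0 reversed, where a change of sign in a small difference counted as neither. Most of the 78 could not differ. Dropping the floor changes no member, since all measured members lay above it. Several of these members also have only 1 measured probe set to average. The sign of some small differences, such as Atg5 at 5 uM (-0.11, and 0.07 with the mean), did change. Counting the shared probe sets, added after the data were seen, changed no count by over 1.5 times but gave the lowest median at 5 uM (0.12 in place of 0.22). The brighter probe set stood for Gabarapl2 there, so its dimmer one, 2.21-fold lower at 5 uM, entered no count. Tfeb, Vps18, Atg10 and Atg14 lay near or under the floor in DMSO, where a lower level cannot be seen.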
